A study of Mus musculus with 8 samples.

Results

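The comparison described here sets the irradiated small intestine of mice pretreated with FGF1/CPP-C against that of mice pretreated with FGF1. It rests on 4 of the 8 arrays, chosen by their sample titles: 2 arrays labelled FGF1CPPC+8Gy4h and 2 labelled FGF1+8Gy4h. All samples came from female BALB/cA Jcl mice aged 8 weeks that received saline, FGF1 or FGF1/CPP-C intraperitoneally. The FGF1 and FGF1/CPP-C groups were then exposed to 8 Gy of carbon ions, 12 h after the injection, and the intestine was frozen 4 h later. The other 2 groups, saline with 8 Gy and saline with 0 Gy (2 arrays each), entered the fit to give the spread between arrays. The labels name the tissue as small intestine and the design text as jejunum. Nothing in the labels says whether both arrays of a treatment stand for different mice, so a p-value here reflects how far these particular arrays vary and no more than that, and the variation may be technical. Arrays numbered 1 lay on slide 1 and arrays numbered 2 on slide 2, so each slide held 1 array of each group.

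FGF1 is a growth factor that binds FGF receptors at the cell surface and activates the RAS-ERK cascade, whose output is read through transcripts such as the Sprouty, Dusp and Etv genes. FGF1/CPP-C is a chimeric protein that joins FGF1 to a part the labels call CPP-C. In the intestine, dividing crypt cells renew the epithelium, and radiation stops them through p53, which switches on cell-cycle inhibitors such as Cdkn1a and death genes such as Bbc3. The epithelium also differs along its length: the proximal duodenum lies next to the stomach and the pancreas, holds the mucus-secreting Brunner glands and takes up calcium and iron, whereas Hox genes mark position along the gut.

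A level below is the log2 processed signal of a probe minus the 75th percentile of its array, so that 0 is the brightness of a fairly abundant transcript and each unit is a doubling. A difference is the mean level of the 2 FGF1/CPP-C arrays minus that of the 2 FGF1 arrays, in log2, with its standard error (SE) from limma, and n = 2 arrays per group throughout. Against the labelled tissue, all 25 enterocyte genes measured were above background on the 4 arrays compared, and their median level lay between 5.12 and 5.88 on the 8 arrays. The 75th percentile of the raw signal ranged from 1712 to 2131 intensity units, and from 66.9% to 71.1% of probes were well above background. The 2 FGF1 arrays correlated with r = 0.992 and the 2 FGF1/CPP-C arrays with r = 0.994 across genes.

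Some arrays held transcripts of neighbouring organs. The median level of 15 stomach antrum genes was 1.96 on FGF1 array 1 and -4.02 on FGF1 array 2, against -5.17 and -5.96 on the FGF1/CPP-C arrays. High antrum medians were also seen on 0 Gy saline array 1 (2.06) and 8 Gy saline array 2 (2.73), so FGF1 array 1 is 1 of 3 such arrays. The summed linear level of the antrum genes, in multiples of the 75th percentile, was 1046 and 445 on the FGF1 arrays and 1.14 and 0.935 on the FGF1/CPP-C arrays, where 6 and 7 of the 15 were not above background. Pancreatic acinar genes (19 measured) had a median of -1.62 on FGF1/CPP-C array 1 and between -3.76 and -2.67 on the other 3 arrays compared. Antral and Brunner gland results are given with and without FGF1 array 1, and the part of organ boundaries in the other differences was not tested.

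**Figure D1:**
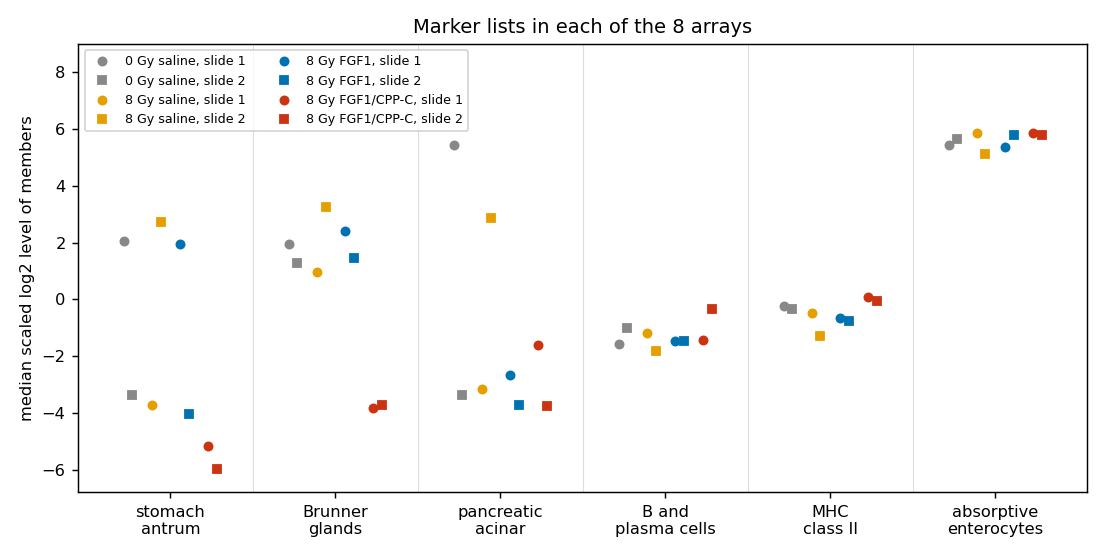
Median scaled log2 level of the members of 6 marker lists (y axis) in each of the 8 arrays, coloured by group, with circles for slide 1 and squares for slide 2. The antrum median is between 1.96 and 2.73 on 3 arrays, FGF1 array 1 among them, and lowest on the 2 FGF1/CPP-C arrays, whereas the enterocyte median lies between 5.12 and 5.88 on all arrays.

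Of 21736 genes tested, 3 passed an adjusted p of 0.05 in limma (0.0138%), and all 3 were lower with FGF1/CPP-C: Tff2, Gkn3 and Kel. The probes that read these 3 genes carried the sequences below, shown because each of the calls rests on a single 60-base probe, read from the array files and printed 5′ to 3′ in lower case.

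Tff2: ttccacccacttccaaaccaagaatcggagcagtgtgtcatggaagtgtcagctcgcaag

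Gkn3: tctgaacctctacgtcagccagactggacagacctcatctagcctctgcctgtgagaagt

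Kel: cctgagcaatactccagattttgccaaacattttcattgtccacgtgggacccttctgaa

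The Gkn3 probe maps to chr6:87333375-87333434 and the Kel probe to chr6:41636474-41636533 in mm9, and the array files give no position for the Tff2 probe.

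Tff2 encodes trefoil factor 2, a secreted peptide of gastric mucous cells and Brunner glands that protects the mucosa. Its level was 8.66 and 8.18 on the FGF1 arrays and -6.0 and -7 on the FGF1/CPP-C arrays, the last being the lower limit set on the scale. The 4 saline arrays lay between 8.22 and 9.0. Tff2 was therefore among the brightest transcripts on 6 arrays and not above background on the 2 FGF1/CPP-C arrays. It fell by at least 29100-fold, a bound against the lowest signal above background, and the fitted difference was -14.92 ± 0.35 (SE; limma adjusted p = 0.000227). The probe was saturated on 1 of the FGF1 arrays. Without FGF1 array 1 the difference was -14.68 (limma adjusted p = 0.009). The call was lost in the fit to the 4 arrays alone (adjusted p = 0.0656) and without the 3 arrays with antrum transcripts (adjusted p = 0.319, difference -14.68).

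Gkn3 encodes gastrokine 3, a secreted protein of gastric mucous neck cells. Its level was 8.19 and 7.22 on the FGF1 arrays, -1.64 and -1.80 on the FGF1/CPP-C arrays, and between 7.25 and 8.40 on the 4 saline arrays. The FGF1/CPP-C arrays again stood apart from the other 6, but here they were above background. Gkn3 fell by at least 688-fold (log2 difference -9.43 ± 0.39; limma adjusted p = 0.00335), a lower bound because the probe was saturated on 1 of the FGF1 arrays. Without FGF1 array 1 the difference was -8.94 (adjusted p = 0.0163), and without FGF1/CPP-C array 2 the call was lost (adjusted p = 0.0597, difference -9.35). It was also lost with the series matrix values (adjusted p = 0.0882), with no filter on dim probes (0.0685), in the fit to the 4 arrays alone (0.104) and without the 3 arrays with antrum transcripts (0.116).

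Kel encodes the Kell metalloendopeptidase, known from the surface of red cells. Its level was -4.39 and -4.64 on the FGF1 arrays and at the lower limit of -7 on both FGF1/CPP-C arrays, with -5.06 to -4.07 on the saline arrays. It fell by at least 5.11-fold (fitted difference -2.48 ± 0.17; limma adjusted p = 0.0420). The size and the call depend on the lower limit and the background correction. With a floor of -6 the difference was -1.48 (limma adjusted p = 0.128). With normexp background correction it was -1.05 (limma adjusted p = 0.0619), so the call was lost in both. A fit that blocks on the slide gave an adjusted p of 0.0897, so the call was lost, and it was lost in every fit that left out 1 of the 4 arrays compared (adjusted p from 0.110 to 0.326), while the difference stayed between -2.61 and -2.36. None of 6 red-cell genes had an unadjusted p under 0.05, and their median difference of 0.61 was 0.14 without FGF1/CPP-C array 2 and 1.16 without FGF1/CPP-C array 1.

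**Figure D2:**
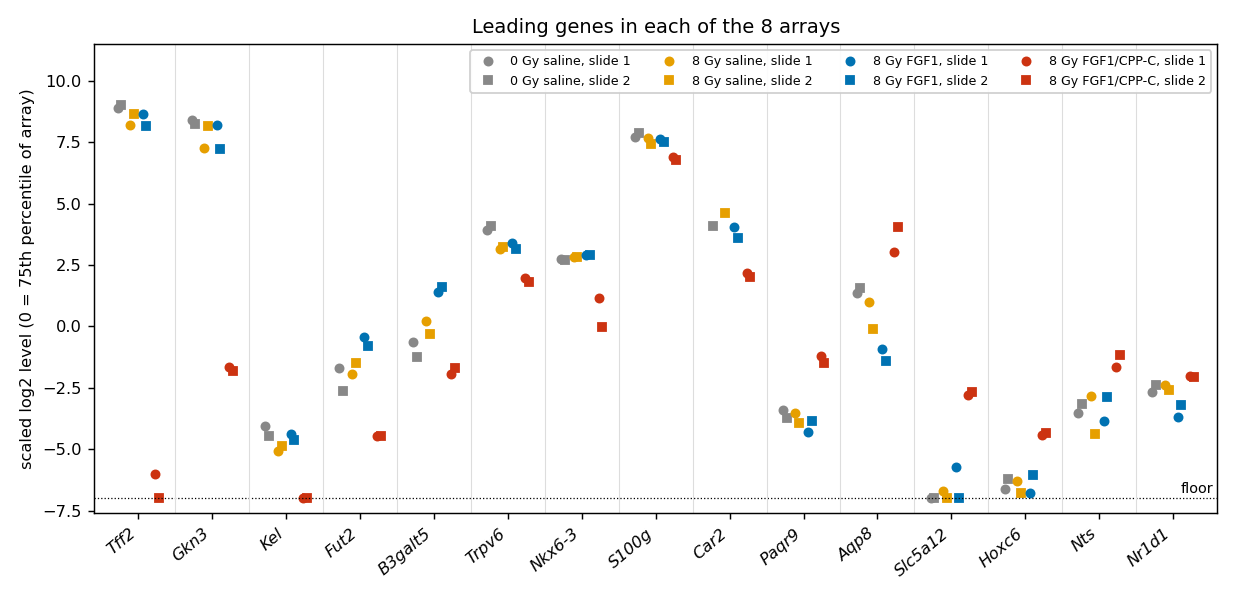
Scaled log2 level (y axis, 0 being the 75th percentile of an array) of 15 genes in each of the 8 arrays, coloured by group, with circles for slide 1 and squares for slide 2; the dotted line is the lower limit of -7. For Tff2, Gkn3 and Kel the 2 FGF1/CPP-C arrays lie below the 6 others, and for Aqp8, Paqr9 and Slc5a12 they lie above them.

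Outside these 3 genes no difference passed. At an unadjusted p under 0.05, 1891 genes (8.70%) differed, 1116 higher (5.13%) and 775 lower (3.57%) with FGF1/CPP-C, against 1087 that chance alone would give. The arrays of the 2 groups did not overlap for 9869 genes (45.4%), 53.6% of genes were higher and 46.4% lower in the mean, and 13376 genes had the same sign on both slides against 8281 with opposite signs. A difference of at least 2-fold on both slides was seen for 70 genes higher and 150 genes lower. The median difference over all genes was 0.02 and stayed between -0.02 and 0.04 under every scaling and every array left out. Unadjusted counts of gene lists below are to be read against 5.13% and 3.57%, and members of a list share samples and are not replicates.

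**Figure D3:**
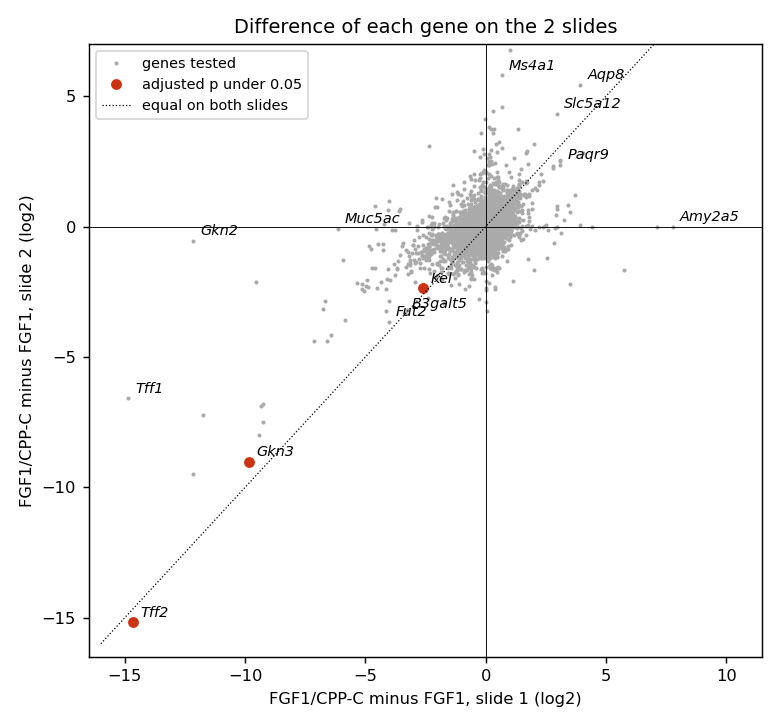
FGF1/CPP-C minus FGF1 in log2 on slide 1 (x axis) and on slide 2 (y axis), 1 point per gene tested, with the 3 genes past an adjusted p of 0.05 in red and the line of equal differences dotted. Tff2, Gkn3 and Kel lie near the line, whereas Gkn2, Muc5ac and Amy2a5 differ mainly on slide 1 and Ms4a1 mainly on slide 2.

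Stomach antrum genes had the largest median shift of the 55 gene lists. All 15 measured antrum genes were lower in the mean, 7 of 15 at an unadjusted p under 0.05, and the median difference was -4.76 (-6.67 on slide 1 and -2.85 on slide 2). The median was -2.88 without FGF1 array 1. Beyond Tff2 and Gkn3, some members were high on FGF1 array 1 only, and others were higher on both FGF1 arrays. Tff1, a trefoil peptide of gastric pit cells, was at 7.88 and -0.42 on the FGF1 arrays and at the lower limit of -7 on both FGF1/CPP-C arrays (limma adjusted p = 0.550; difference -10.73, or -6.58 without FGF1 array 1). Gkn2, a gastrokine of the same cells, was at 6.49 and -6.04 on the FGF1 arrays and at -5.66 and -6.59 on the FGF1/CPP-C arrays, so only FGF1 array 1 was high. Gast, the hormone gastrin of antral G cells, had the same form at 0.03 and -4.73 against -4.43 and -5.38. Ctse, the endosomal protease cathepsin E, was at 1.96 and 1.28 against -1.30 and -1.94, low on both FGF1/CPP-C arrays, and differed by -3.24 with and -2.90 without FGF1 array 1. For Tff1 and Ctse the groups did not overlap, and for Gkn2 and Gast they did.

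The Brunner gland list, which shares Tff2, Muc6 and Aqp5 with the antrum list, also had lower means. Of 9 measured, 3 were lower and 1 higher at an unadjusted p under 0.05, with a median of -1.27. The median was -0.69 without FGF1 array 1, -1.85 without FGF1 array 2 and -0.32 with the series matrix values. Fut2, a fucosyltransferase that builds blood-group H sugars on mucus, was at -0.43 and -0.81 on the FGF1 arrays, -4.47 on both FGF1/CPP-C arrays and -2.62 to -1.48 on the saline arrays (difference -3.85 ± 0.33; limma adjusted p = 0.0652), and differed by -3.65 without FGF1 array 1. Its FGF1 arrays lay above the saline arrays and its FGF1/CPP-C arrays below them. B3galt5, a galactosyltransferase of glycan chains that is in neither list, had the same order, with 1.41 and 1.62 on the FGF1 arrays, -1.95 and -1.70 on the FGF1/CPP-C arrays and -1.25 to 0.21 on the saline arrays (difference -3.34 ± 0.26; limma adjusted p = 0.0652), and differed by -3.45 without FGF1 array 1. Aqp5, a water channel of secretory glands, was at 2.43 and 0.08 on the FGF1 arrays and not above background on either FGF1/CPP-C array (at least 262-fold; limma adjusted p = 0.213), with fitted differences of -8.04 with and -6.86 without FGF1 array 1. In bulk tissue, fewer cells of a type and less RNA per cell cannot be told apart.

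Genes of regional identity along the gut went both ways. Of 20 measured, 11 were higher and 9 lower in the mean, with a median of 0.05 (-0.09 without FGF1 array 1), and 5 were lower and 1 higher at an unadjusted p under 0.05, against 3.57% and 5.13% of all genes. Trpv6, the apical calcium channel of duodenal enterocytes, was at 3.38 and 3.16 on the FGF1 arrays and 1.97 and 1.80 on the FGF1/CPP-C arrays (difference -1.39 ± 0.13; limma adjusted p = 0.0785). S100g, the calcium-binding protein calbindin-D9k, was at 7.65 and 7.53 against 6.90 and 6.76 (adjusted p = 0.226). Cybrd1, the duodenal ferric reductase, was at 3.60 and 4.07 against 2.81 and 2.4 (adjusted p = 0.498). In all 3 the FGF1/CPP-C arrays were the lowest of the 8, and without FGF1 array 1 the differences of Trpv6, S100g and Cybrd1 were -1.28, -0.70 and -1.46. Nkx6-3, a homeobox factor of the antrum and duodenum, was at 2.91 and 2.92 on the FGF1 arrays and at 1.18 and 0.00 on the FGF1/CPP-C arrays, with 2.70 to 2.84 on the saline arrays (adjusted p = 0.204). Pdx1, which patterns the duodenum and pancreas, differed by -0.46 ± 0.15 (adjusted p = 0.480). Gata4, which specifies the proximal small intestine, differed by 0.17 ± 0.15 and Cdx2, an intestinal master regulator, by 0.57 ± 0.33, neither at an unadjusted p under 0.05.

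Of 17 Hox genes tested, 2 (Hoxc5 and Hoxc6) were above background only on the FGF1/CPP-C arrays and entered the test through them. No count over all 17 is therefore read, and no p-value is given for these 2. With probes above background on all 8 arrays, 3 Hox genes were higher at an unadjusted p under 0.05 and 0 lower, with a median of 0.19. Of all 19935 genes tested under that filter, 1082 were higher and 720 lower. The number of Hox genes left by the filter is not given here, so the 3 are not read as a share. Over the 17, Hoxc5 and Hoxc6 included, the median of 0.22 ranged from 0.14 without FGF1/CPP-C array 1 to 0.44 without FGF1/CPP-C array 2. Hoxc6 was not above background on the FGF1 arrays, with -6.79 and -6.06, and was at -4.43 and -4.32 on the FGF1/CPP-C arrays (at least 4.14-fold). Hoxc5 was at -6.68 and -6.71 on the FGF1 arrays, also not above background, and -4.99 and -5.03 on the FGF1/CPP-C arrays (at least 3.22-fold). Both were measured above background on both FGF1/CPP-C arrays, at low signal. Hoxc4 differed by 1.19 ± 0.33, Hoxb6 by 0.50 ± 0.10 and Hoxb5 by 0.57 ± 0.20.

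Among transporters, the differences went both ways. Aqp8, a water channel of absorptive epithelium, had the largest positive difference of all genes tested. It was at -0.90 and -1.38 on the FGF1 arrays, 3.03 and 4.05 on the FGF1/CPP-C arrays and -0.10 to 1.58 on the saline arrays (25.7-fold, log2 difference 4.68 ± 0.46; limma adjusted p = 0.0869). The FGF1/CPP-C arrays were the highest of the 8 and the FGF1 arrays the lowest. A second Aqp8 probe gave a difference of 4.75. Slc5a12, a sodium-coupled lactate carrier, was at -5.73 and -7 on the FGF1 arrays and -2.77 and -2.68 on the FGF1/CPP-C arrays, with at most -6.72 on the saline arrays (fitted difference 3.64 ± 0.38). It was above background on 1 of the 2 FGF1 arrays, and only the FGF1/CPP-C arrays brought it past the filter on dim probes. No p-value is therefore given for it. The size depends on the lower limit: it was 3.14 with a floor of -6, 1.97 with normexp background correction and 4.27 without FGF1 array 1. Slc13a2, a citrate carrier, differed by 1.26 ± 0.24, and Slc5a4a, of the glucose carrier family, by 1.90 ± 0.51. In the list of brush-border solute carriers with probes above background on all 8 arrays, 6 were higher and 1 lower at an unadjusted p under 0.05, with a median of 0.23. Of all 19935 genes tested under that filter, 1082 were higher and 720 lower at that p. The number of carriers left by the filter is not given, so these counts are not read as a share. Over all 27 tested, 7 were higher and 1 lower, with a median of 0.24 (0.43 on slide 1 and 0.01 on slide 2). The 7 include Slc34a2, which was above background only on the FGF1/CPP-C arrays and entered the test through them. The median was 0.15 without FGF1/CPP-C array 1 and 0.40 without FGF1 array 2, and the higher count was 3 without FGF1 array 1 and 4 without FGF1/CPP-C array 1.

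The member that was lower, Slc26a3, exchanges chloride for bicarbonate and was at 2.97 and 3.33 on the FGF1 arrays and 1.75 and 1.62 on the FGF1/CPP-C arrays (adjusted p = 0.114). In the water and chloride list of 22 genes, 12 were higher and 10 lower in the mean, with a median of 0.10 (-0.11 without FGF1/CPP-C array 1), and 4 were higher and 4 lower at an unadjusted p under 0.05. Car2, the carbonic anhydrase of the cytosol, was at 4.04 and 3.62 against 2.18 and 2.02, with a value on only 2 of the 4 saline arrays because outlier spots were left out (adjusted p = 0.204). Slc4a4, a sodium bicarbonate carrier, differed by -0.85 ± 0.13 and Scnn1a, a subunit of the epithelial sodium channel, by -0.68 ± 0.12. The guanylins Guca2a and Guca2b, peptides that stimulate chloride secretion, differed by 0.66 ± 0.23 and 0.53 ± 0.21.

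Marker genes of absorptive enterocytes, digestive enzymes among them, had slightly higher means. Of 25 enterocyte genes, 21 were higher and 5 passed an unadjusted p under 0.05, none lower, with a median of 0.23 (0.38 on slide 1 and 0.08 on slide 2). Anpep, aminopeptidase N, was at 6.65 and 6.50 on the FGF1 arrays and 7.57 and 7.50 on the FGF1/CPP-C arrays (adjusted p = 0.550). Lct, the lactase of the brush border, was at 6.09 and 6.61 against 7.15 and 7.13 (adjusted p = 0.489). The subunits of the sterol exporter, Abcg5 and Abcg8, which are not in this list, differed by 0.73 ± 0.14 and 0.78 ± 0.19. The number of enterocyte genes at an unadjusted p under 0.05 was 0 without FGF1 array 1 or without FGF1/CPP-C array 2.

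Paqr9, a membrane protein of the progestin and adipoQ receptor family, was the gene of smallest p among those higher. It was at -4.28 and -3.86 on the FGF1 arrays, -1.20 and -1.49 on the FGF1/CPP-C arrays and -3.91 to -3.41 on the saline arrays (6.61-fold, log2 difference 2.72 ± 0.22; limma adjusted p = 0.0652). The FGF1/CPP-C arrays were the highest of the 8 and did not overlap with the rest. A second, dim Paqr9 probe gave 1.37.

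Promoters were available in RefSeq (GRCm38.p6) for Gkn3 and Aqp8, the genes with a promoter entry at the lower and upper end of the differences; none was found under the symbols Tff2 and Paqr9. They are printed from 250 bases before to 50 bases after the start, 5′ to 3′ along the gene's strand, with capitals marking the motif GATAA or its reverse complement TTATC, the core read by GATA factors. Gkn3 lies at chr6:87388886-87389185 on the minus strand and Aqp8 at chr7:123462044-123462343 on the plus strand.

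Gkn3: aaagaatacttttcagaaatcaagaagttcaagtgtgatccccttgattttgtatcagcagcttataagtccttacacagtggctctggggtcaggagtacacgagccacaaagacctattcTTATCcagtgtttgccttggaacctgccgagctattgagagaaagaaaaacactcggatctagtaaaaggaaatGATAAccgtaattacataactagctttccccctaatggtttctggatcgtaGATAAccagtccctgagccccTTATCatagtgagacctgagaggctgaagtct

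Aqp8: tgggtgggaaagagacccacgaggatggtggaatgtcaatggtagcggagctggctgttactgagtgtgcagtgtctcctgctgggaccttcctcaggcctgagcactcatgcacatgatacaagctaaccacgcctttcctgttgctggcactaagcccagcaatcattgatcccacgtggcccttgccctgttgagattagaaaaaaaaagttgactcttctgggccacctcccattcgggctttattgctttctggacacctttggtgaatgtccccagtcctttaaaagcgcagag

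The Gkn3 promoter holds 4 matches and the Aqp8 promoter 0, while 25.4% of 32851 RefSeq promoters of this length hold at least 1 on either strand. Among the 15 genes of smallest p that were lower, 13 had entries, and 4 of their 18 promoters (22.2%) held the motif. A match describes letters in this window only.

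Endocrine transcripts went both ways. Of 24 measured, 15 were lower and 8 higher in the mean, 7 lower and 1 higher at an unadjusted p under 0.05, with a median of -0.19, or -0.04 without FGF1 array 2. Pyy, peptide YY of L cells, was at 0.47 and 0.78 on the FGF1 arrays and -0.81 and -1.18 on the FGF1/CPP-C arrays (limma adjusted p = 0.257). Chgb, a granin of secretory granules, was at 4.55 and 4.42 against 3.88 and 3.83 (adjusted p = 0.204). Nts, neurotensin, known from distal N cells, was at -3.86 and -2.86 against -1.64 and -1.15 (adjusted p = 0.436). Gip and Cck, hormones of proximal K and I cells, differed by 0.04 ± 0.25 and 0.18 ± 0.35.

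Cell-cycle genes had higher means by a small and even amount. Of 27 mitosis genes, 24 were higher and 19 passed an unadjusted p under 0.05 with FGF1/CPP-C higher, against 5.13% of all genes, and none was lower. Their median difference was 0.36 (slide 1, 0.26; slide 2, 0.48). Mki67, the proliferation antigen, was at 1.69 on both FGF1 arrays and 1.99 and 2.18 on the FGF1/CPP-C arrays, with 1.79 and 1.93 after saline and 8 Gy and 2.54 and 2.72 without radiation. The FGF1/CPP-C arrays thus lay between the unirradiated arrays and the other irradiated ones. Ube2c, the mitotic ubiquitin-conjugating enzyme, was at 0.78 and 0.75 against 1.29 and 1.22 (difference 0.49 ± 0.10; limma adjusted p = 0.282). Ccnb1, cyclin B1, was at -1.85 on both FGF1 arrays and -1.60 and -1.43 on the FGF1/CPP-C arrays (adjusted p = 0.546).

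Of 30 replication genes, 28 were higher, 12 of them at an unadjusted p under 0.05, with a median of 0.28. Mcm5, a subunit of the replicative helicase, was at 0.12 and 0.08 against 0.39 and 0.54 (adjusted p = 0.431). No member of either list passed the adjusted threshold. The mitosis count was 8 without FGF1 array 1, 4 without FGF1 array 2, 16 without FGF1/CPP-C array 1 and 3 without FGF1/CPP-C array 2, and the replication count was 1, 3, 6 and 2, each with fewer arrays in the fit. The mitosis median stayed between 0.30 and 0.44 and the replication median between 0.27 and 0.30.

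**Figure D4:**
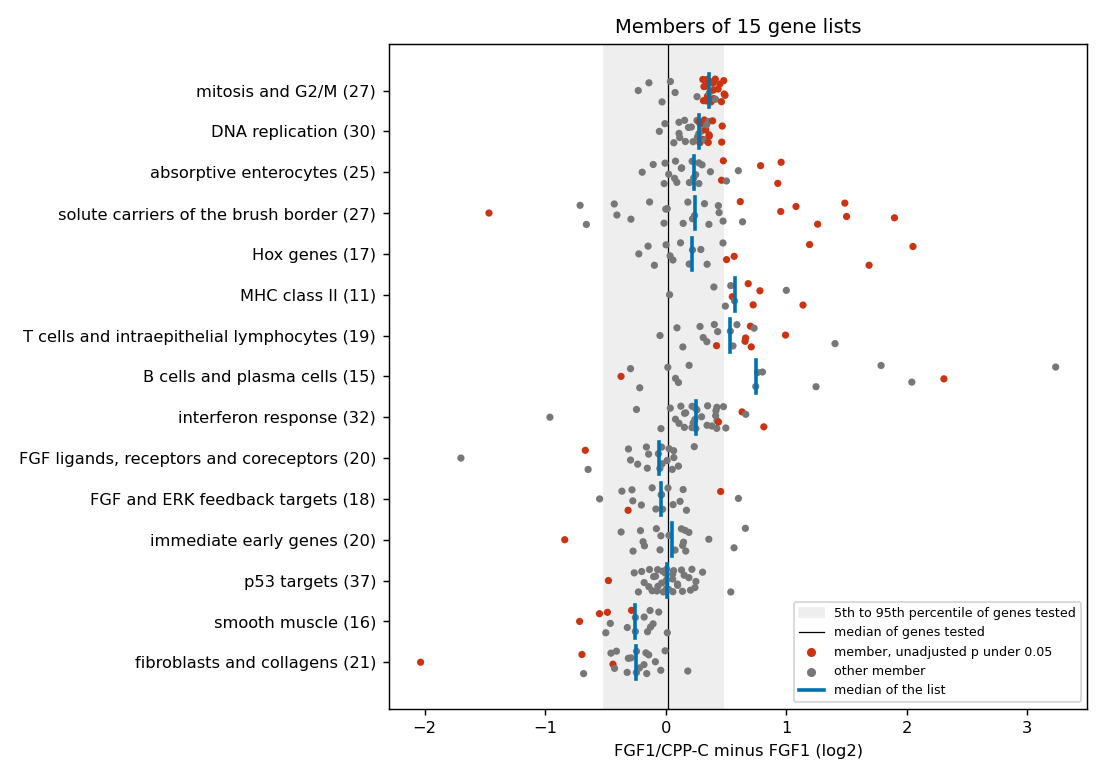
FGF1/CPP-C minus FGF1 in log2 (x axis) for the measured members of 15 gene lists (rows, number measured in brackets); red points have an unadjusted p under 0.05, blue bars are list medians and the grey band spans the 5th to 95th percentile of all genes tested, -0.51 to 0.47. The mitosis and replication points lie mostly between 0 and 0.5, the MHC class II median at 0.57, and the p53 and FGF lists around 0.

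Stem cell genes had no common direction. Of 22 crypt-base genes, 2 were higher and 1 lower at an unadjusted p under 0.05, with a median of -0.10. Lgr5, the receptor that marks crypt-base stem cells, was at -3.56 and -2.99 on the FGF1 arrays and -2.65 and -2.69 on the FGF1/CPP-C arrays (difference 0.60 ± 0.19; limma adjusted p = 0.482). Olfm4 differed by -0.59 ± 0.39. For Ascl2, a stem cell transcription factor, the difference was -0.83 ± 0.60 and its 2 probes had opposite signs.

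Genes of FGF signalling had a median difference near that of all genes. Of 20 measured ligands, receptors and coreceptors, 1 was lower and 0 higher at an unadjusted p under 0.05, with a median of -0.06, and the limma test at adjusted p under 0.05 called 0. Fgf1 itself was at 0.05 and 0.16 on the FGF1 arrays and 0.17 and 0.18 on the FGF1/CPP-C arrays. Fgf10, a mesenchymal ligand, had the most negative difference of the list: it was at -4.38 and -5.01 on the FGF1 arrays and at -6.39 on both FGF1/CPP-C arrays, where it was not above background (-1.70 ± 0.73; limma adjusted p = 0.591). Klb, a coreceptor, differed by -0.64 ± 0.80. The receptors Fgfr1, Fgfr2, Fgfr3 and Fgfr4 differed by -0.14 ± 0.14, -0.03 ± 0.09, 0.01 ± 0.16 and 0.11 ± 0.14, and the probes of Fgfr1 disagreed in sign. Fgf23, an endocrine FGF, was the member past the unadjusted threshold, at 3.97 and 3.80 against 3.22 on both FGF1/CPP-C arrays. The 2 arrays with saline and 8 Gy were at 4.01 and 3.30, about as far apart as the treatments.

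Downstream of the receptors, 18 feedback genes of the ERK cascade had a median of -0.04, with 1 higher and 1 lower at an unadjusted p under 0.05. Dusp6, the ERK phosphatase, was at 3.46 and 3.70 on the FGF1 arrays and 3.46 and 2.98 on the FGF1/CPP-C arrays. Etv4 differed by 0.14 ± 0.11, Etv5 by -0.27 ± 0.30 and Spry2 by -0.11 ± 0.16. Among 20 immediate early genes, Egr1 differed by 0.57 ± 0.50, Fos by -0.27 ± 0.34 and Myc by 0.15 ± 0.15, with a list median of 0.05. A difference that misses the threshold with 2 arrays per group does not show that the treatments act alike.

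Targets of p53 had close levels in both groups. Of 37 measured, 1 was lower and 0 higher at an unadjusted p under 0.05, and the median was 0.01. Cdkn1a, the p21 cell-cycle inhibitor, was at 3.83 and 3.84 on the FGF1 arrays and 3.96 and 3.73 on the FGF1/CPP-C arrays, and at 2.74 and 2.93 without radiation; its 2 probes disagreed in sign for the difference between treatments. Mdm2, the p53 ubiquitin ligase, differed by 0.06 ± 0.13, Bax by -0.03 ± 0.11 and the death gene Bbc3 by 0.24 ± 0.23. Gdf15, a secreted stress cytokine, was at 1.92 and 2.46 against 2.36 and 2.62, while the unirradiated arrays were at -3.37 and -3.64. The 4 arrays compared were thus far from the unirradiated ones for Gdf15 and close to each other.

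Transcripts of antigen presentation and lymphocytes had higher means. All 11 measured MHC class II genes were higher, 5 at an unadjusted p under 0.05, with a median of 0.57 (0.39 and 0.71 on slides 1 and 2). Cd74, the invariant chain, was at 4.45 and 4.24 on the FGF1 arrays and 5.29 and 4.96 on the FGF1/CPP-C arrays, with 4.57 and 3.94 after saline and 8 Gy and 5.04 and 4.87 without radiation (difference 0.78 ± 0.23; limma adjusted p = 0.450). H2-Ab1, the class II beta chain, was at 4.54 and 4.39 against 5.19 and 5.11 (adjusted p = 0.436). For both genes the FGF1/CPP-C arrays were close to the unirradiated arrays and above the 4 other irradiated ones. The count of 5 was 0 without FGF1 array 2 and 2 without each of the other 3 arrays compared.

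Of 19 T cell genes, 18 were higher and 6 passed an unadjusted p under 0.05, with a median of 0.54. Cd3d, a chain of the T cell receptor complex, was at -1.08 and -1.12 on the FGF1 arrays and -0.54 and -0.25 on the FGF1/CPP-C arrays (limma adjusted p = 0.474). Lck, the kinase beneath that receptor, was at 0.13 and 0.02 against 0.61 and 0.94 (adjusted p = 0.473). The count of 6 was 1 without FGF1 array 1, FGF1 array 2 or FGF1/CPP-C array 2. The summed linear level of the list was 23.3 and 28.0 on the FGF1 arrays and 34.8 and 33.8 on the FGF1/CPP-C arrays.

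Among B cell and plasma cell genes, the median level was highest on FGF1/CPP-C array 2, but members went both ways. Of 15 measured, 12 were higher and 3 lower in the mean, and 1 was higher and 1 lower at an unadjusted p under 0.05. The higher was Cr2, a complement receptor, by 1.73 on slide 1 and 2.89 on slide 2, and the lower was Xbp1 (-0.37). The summed linear level was 108 and 100 on the FGF1 arrays and 99.2 and 102 on the FGF1/CPP-C arrays. Ms4a1, the CD20 antigen, was at -5.53 and -6.44 on the FGF1 arrays and -4.87 and -0.63 on the FGF1/CPP-C arrays. It is among the 12 that were higher, but only the FGF1/CPP-C arrays brought it past the filter on dim probes. The median difference of the list was 0.75, and 0.47 with probes above background on all 8 arrays. The median difference of 15 B cell genes was 0.03 on slide 1 against 1.27 on slide 2, and 0.04 without FGF1/CPP-C array 2. Interferon genes went the other way between slides, with a median of 0.47 on slide 1 and 0.05 on slide 2 over 32 genes, 29 of them higher in the mean.

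Among acute-phase and antimicrobial transcripts of the epithelium, 10 of 16 were lower and 6 higher in the mean. Reg3g, a lectin that kills Gram-positive bacteria, was at 6.69 and 6.55 on the FGF1 arrays, 5.23 and 4.96 on the FGF1/CPP-C arrays and 4.87 to 6.12 on the saline arrays (difference -1.53 ± 0.38; limma adjusted p = 0.361). Duoxa2, which matures the hydrogen peroxide enzyme Duox2, was at -1.07 and -1.69 against -2.85 and -2.93 (adjusted p = 0.270). Saa2, a serum amyloid protein, differed by -1.33 ± 0.31, but only the FGF1 arrays brought it past the filter on dim probes. Of the 16, 3 were lower at an unadjusted p under 0.05, Saa2 among them. The median was -0.27, or -0.03 without FGF1 array 1. With probes above background on all 8 arrays, 2 were lower at that p, with a median of -0.35. The number of members left by that filter is not given, so the 2 are not read as a share. The list of Paneth cell genes and Reg lectins, which shares Reg3g, had 8 of 12 higher in the mean, 3 higher and 3 lower at an unadjusted p under 0.05 and a median of 0.31; the higher count was 0 without FGF1 array 1, FGF1 array 2 or FGF1/CPP-C array 2 and 1 without FGF1/CPP-C array 1. Pla2g2a, a secreted antibacterial phospholipase, differed by 0.72 ± 0.23 and Mmp7, the protease that activates defensins, by 0.47 ± 0.17. Reg4, a lectin of the same list, was at 2.36 and 2.43 against 1.53 and 1.52 (adjusted p = 0.204).

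Transcripts of the wall beneath the epithelium had lower means. Of 16 smooth muscle genes, 15 were lower and 4 passed an unadjusted p under 0.05, with a median of -0.25. Of 21 fibroblast and collagen genes, 20 were lower and 3 passed, with a median of -0.24. The fibroblast count was 2 with normexp background correction or the series matrix values, and 5 in the fit to the 4 arrays alone. With 1 of the 4 arrays compared left out, the fibroblast median lay between -0.30 and -0.23. Cnn1, the contractile protein calponin, differed by -0.55 ± 0.22, and Timp1, an inhibitor of matrix proteases, by -0.70 ± 0.18. The smooth muscle count was 0 without FGF1 array 2 or FGF1/CPP-C array 2, and the median lay between -0.31 and -0.17. The summed linear level of the smooth muscle list was 181 and 192 on the FGF1 arrays and 163 and 152 on the FGF1/CPP-C arrays, and its part in the other differences was not tested.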

How the data were processed

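RNA of small intestine was measured on 8 Agilent 1-colour arrays, of which 4 are compared here and all 8 entered the fit. Per the file headers, the processed signal is a background-subtracted intensity on a linear scale made by the authors' scanner software, Agilent Feature Extraction 9.5.3.1, and arrays were not scaled to each other. The deposited series matrix repeats these intensity values for spots above background, linear and uncentred, with medians of 675 to 849 per array. The sources used here do not give the authors' normalisation between arrays.

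Deposited signals were turned into log2 values, the 75th percentile of each array subtracted and a floor of -7 set, since some signals were not above 0. Control spots (1377 per array) and outlier spots were left out and saturated spots kept. The 39429 probes were named through accessions in a RefSeq table of GRCm38.p6 (28330), through the files' symbols (2204), or kept the file's name (8895). A probe was kept if both arrays of any of the 4 groups had it well above background (27469 probes), and the brightest probe stood for a gene. A gene was tested if above background on at least 1 of the 4 arrays compared, which left 21736. Probe positions are those of mm9, per the file headers.

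limma 3.58.1 in R 4.3.3 (data.table, version 1.17.8) was fitted to the 4 group means over 8 arrays, with 4 residual degrees of freedom and Benjamini-Hochberg adjustment over all genes. Every adjusted p in the text is limma's. An exact permutation test of 2 against 2 arrays cannot go below p = 0.333. A fold given as "at least" sets the brighter group's mean against the lowest signal above background, or the probe's own if higher, on the arrays of the dimmer group. The number of arrays limits the precision. Sequences and figures were handled in Python 3.11.15 with pandas 2.3.3 and matplotlib 3.10.9.

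Named genes were, per direction, the 15 of smallest p with an established symbol, an unadjusted p under 0.05, a difference of at least 1.5-fold, no overlap between groups and the same sign on both slides; up to 4 members per list past that p, or else 2; and FGF, ERK, p53, stem cell and cycle genes. Not every gene so taken is described. Tff1, Gkn2, Gast, Muc5ac, Cybrd1, Pdx1, Gata4, Cdx2, Hoxb5, Guca2a and Guca2b fall outside this rule. So do Scnn1a, Nts, Gip, Cck, Ms4a1, Fgf10, Llcfc1 and Ephb6. All of these were chosen after their values were seen. The comparison, the 55 gene lists and the rule were chosen with earlier results of these data known.

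Same-numbered arrays share a slide per the file headers, and the correlation of their deviations from the group means ranged from -0.52 to 0.54 over the 6 pairs of groups (0.23 for FGF1 with FGF1/CPP-C). The alternatives were other scalings, background correction, filters, floors, probe rules, fits and arrays left out.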

Additional observations from a re-analysis of the deposited data

How the results depend on the processing

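The count of 3 genes past an adjusted p of 0.05 was 12 with quantile normalisation, 14 with median scaling, 10 with normexp background correction, 11 with the mean of probes and 8 with trend and robust moderation. It was 1 with probes above background on all 8 arrays, and 0 in limma with the series matrix values (1266 genes at an unadjusted p under 0.05), with the fit to the 4 arrays alone (2691) and without the 3 arrays with antrum transcripts (1939). Tff2 and Kel were not tested with probes above background on all 8 arrays or with the series matrix values, so those counts say nothing of them. With the slide as a replicate block 2 genes passed, Tff2 and Gkn3, and Kel did not. With 1 array left out, the count ranged from 2 to 5 and the unadjusted count of 1891 from 1065 to 2778. The unadjusted count was 1065 without FGF1 replicate 1 and 1164 without FGF1/CPP-C replicate 2. Without the 3 arrays with antrum transcripts the unadjusted split was 970 higher and 969 lower, against 59.0% higher in the fit to all arrays. Over the single genes and list medians under all alternatives, 41 values passed anew, 19 lost their call, 421 moved by more than the spread between arrays, 4882 did neither, and no called value changed sign. The cause of these shifts was not tested. Fewer arrays also leave fewer degrees of freedom. Tff2 and Kel reach the lower limit of the signal, where differences are bounds only.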

Other observations

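Of 17 clock genes, 5 were higher with FGF1/CPP-C at an unadjusted p under 0.05 and none lower, with a median difference of 0.18 (0.31 on slide 1 and 0.09 on slide 2) and none past the adjusted threshold in limma. The median was 0.37 without FGF1/CPP-C array 2, and the count was 3 without FGF1 array 2. Nr1d1, the nuclear receptor REV-ERB alpha that represses Arntl, was at -3.70 and -3.19 on the FGF1 arrays, -2.02 and -2.08 on the FGF1/CPP-C arrays and -2.66 to -2.37 on the saline arrays (difference 1.40 ± 0.20; limma adjusted p = 0.194). Its relative Nr1d2 differed by 0.71 ± 0.19 and the output factor Hlf by 0.69 ± 0.18. The FGF1 arrays were the lowest of the 8 for Nr1d1 and Nr1d2, and the time of day of sampling is not given in the labels.

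Targets of the antioxidant factor NRF2 had lower means in 11 of 16, with 4 at an unadjusted p under 0.05: Me1, the NADPH-forming malic enzyme (-0.56 ± 0.12), Gsr, glutathione reductase (-0.54 ± 0.14), Hmox1, heme oxygenase (-0.61 ± 0.18), and Gclc, which makes glutathione's precursor (-0.48 ± 0.16). The count was 2 without FGF1/CPP-C array 1, and none passed the adjusted threshold in limma.

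The probes of Kel and Trpv6, both lower with FGF1/CPP-C, start within 100 kb of each other on chromosome 6 of mm9 (Trpv6 at chr6:41570624-41570683). The other genes tested in that window, Ephb6 and Llcfc1, differed by -0.40 ± 0.21 and -0.55 ± 0.47, neither at an unadjusted p under 0.05, though Llcfc1 had an unadjusted p of 0.00407 with the slide as a block (limma adjusted p = 0.386).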
